A study of Mus musculus with 6 samples.

Results

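Pericytes and vascular smooth muscle cells, together called mural cells, were followed here through 10 of their marker genes: Rgs5, Abcc9, Vtn, Anpep, Notch3 and Cspg4, which mark brain pericytes, and Acta2, Tagln, Myh11 and Des, which encode proteins of the contractile or intermediate filament apparatus. The genes were taken by symbol, and all 10 were found among the 16729 genes of the deposited count table. RNA-seq had been run on intracranial tumors grown from mG7080 cells, a mouse gliomasphere line with engineered mutations, p53 and Nf1 among them, in C57BL/6 hosts. The 3 WT libraries came from tumors in hosts with intact Esm1, and the 3 KO libraries from tumors in hosts in which Esm1 was knocked out. Esm1 encodes the secreted endothelial proteoglycan Endocan. Both groups received the same cells, whose own Esm1 was not deleted, and by the methods the hosts were female and aged 6 to 8 weeks, though the reporting summary gives an older range. The comparison asks whether genes of the vessel wall differed between tumors of the 2 kinds of host, since the study concerns the effect of Endocan on tumor vessels.

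Pericytes lie within the basement membrane of capillaries, in contact with endothelial cells, and in the brain they take part in forming and keeping the blood-brain barrier. Smooth muscle cells wrap arteries and arterioles and contract through smooth muscle actin and myosin. Endothelial PDGF-B draws mural cells to the vessel through their receptor PDGFRβ, and endothelial Jagged1 signals to NOTCH3 on mural cells. Libraries were made from whole tumor tissue, so mural RNA was diluted by RNA of tumor, immune and other brain cells, and fewer mural cells cannot be told apart from less RNA per mural cell.

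The libraries held 17632070 to 22241832 counted reads each, and 1 read was worth 0.0445 to 0.0570 CPM (read counts scaled to library size, with factors from the trimmed mean of M-values, TMM). Esm1 itself was at 1.19, 1.09 and 4.05 CPM in WT 1, WT 2 and WT 3. It was at 0.0570 CPM (1 read) in KO 1, 1.07 CPM (24 reads) in the library labelled KO 2 and 0.208 CPM (4 reads) in KO 3. Against its label, the library labelled KO 2 was thus close in Esm1 to WT 1 (25 reads) and WT 2 (21 reads), and on the first principal component, which held 83.8% of the variance, it lay between WT 1 and WT 3. Each of the 10 genes is therefore compared over all 6 libraries as labelled, over the 5 libraries without the one labelled KO 2, and over WT 1, WT 2, KO 1 and KO 3, the 4 libraries of the study's own results table. These 3 comparisons share libraries and are not independent of each other.

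Per length of gene, the mural genes spanned a wide range, with Vtn, Cspg4 and Rgs5 at the top and Myh11 and Des at the bottom. The deposited FPKM (fragments scaled to gene length and library size) had medians over the 6 libraries of 35.6 for Vtn, 26.5 for Cspg4, 26.3 for Rgs5, 6.21 for Tagln, 4.83 for Notch3, 3.67 for Acta2, 3.59 for Anpep, 1.74 for Abcc9 and 0.753 for both Myh11 and Des. The ranges of neighbouring genes in this order overlapped, except that the lowest Rgs5 value (19.9 FPKM in KO 3) was above the highest Tagln value (10.8 FPKM in WT 3). Cspg4 had the widest range of the 10, from 3.06 to 39.7 FPKM, and Rgs5 was among the steadiest, from 19.9 to 37.2 FPKM.

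Over all 6 libraries, 0 of the 10 mural genes differed between KO and WT at an adjusted p under 0.05 (edgeR quasi-likelihood test, Benjamini-Hochberg over 16166 genes), where the share of all genes called was 0.0% lower and 0.0% higher in KO. The smallest adjusted p of any gene in this fit was 0.184, shared by 4300 genes. At an unadjusted p under 0.05 there were 4 mural genes, Notch3 and Des lower and Vtn and Myh11 higher in KO, against 11.9% of all genes lower and 15.2% higher. The same 4 were the ones whose KO and WT libraries did not overlap, against 14.6% of all genes with every KO library below every WT library and 13.2% with every KO library above. DESeq2 on the 6 libraries called Vtn and Myh11, both higher in KO, where it called 2.67% of all genes lower and 4.79% higher, whereas edgeR's exact test and limma-voom called none of the 10.

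Over the 4 libraries, 3 of the 10 passed an adjusted p of 0.05 in the same edgeR test: Cspg4 was lower and Vtn and Myh11 were higher in KO, against 13.9% of all 16183 genes called lower and 2.87% called higher. Over the 5 libraries without the one labelled KO 2, 5 of the 10 passed, with Cspg4, Notch3 and Anpep lower and Vtn and Myh11 higher, against 28.3% of all 16279 genes lower and 24.5% higher. The median log2 fold change (KO minus WT) of the 10 genes was -0.44 over the 6 libraries, -0.51 over the 5 and -0.30 over the 4, where the median over all genes tested was -0.022, -0.020 and -0.026. The mural genes therefore did not move as a block: over the 6 libraries 7 had a fold change below 0 and 3 above, and calls in both directions were made over the 4.

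**Figure D1:**
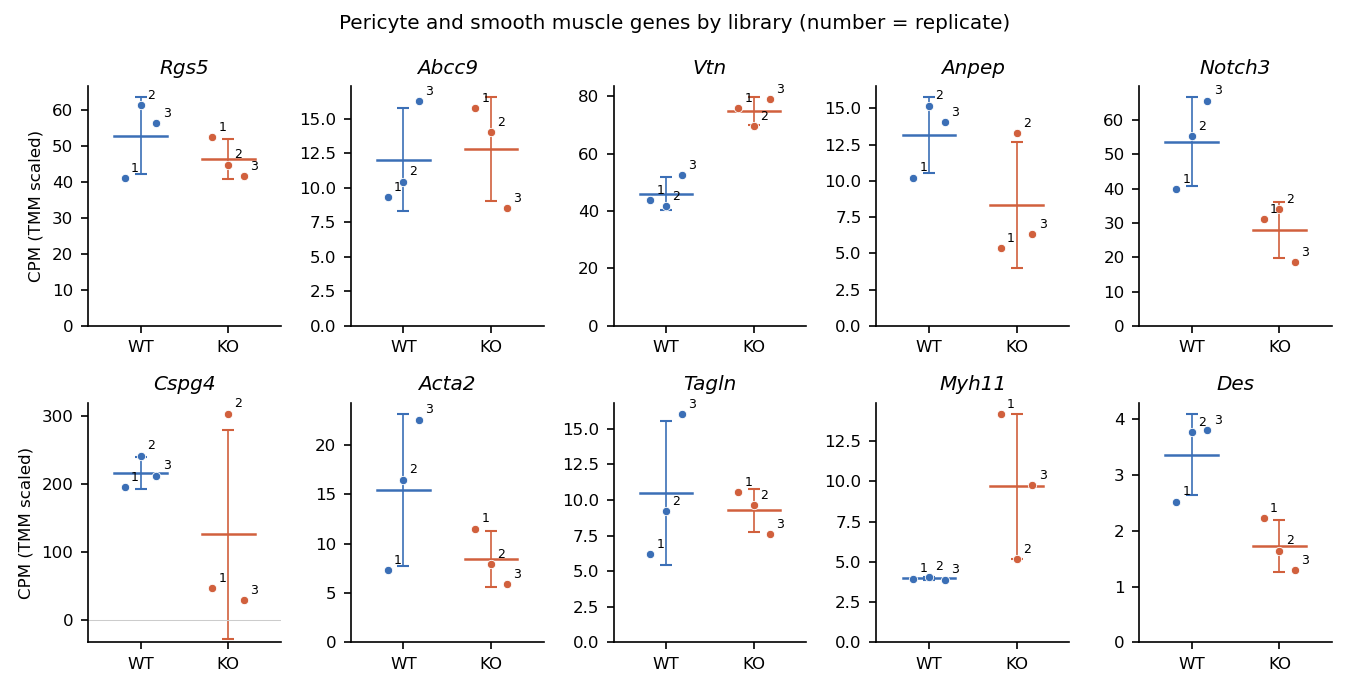
CPM (TMM scaled, linear axes) of the 10 mural genes in each of 6 libraries, blue for WT and red for KO hosts, with the replicate number beside each point; KO replicate 2 is the library whose Esm1 count goes against its label. Long lines are group means and bars are ± SD (n = 3). KO and WT points do not overlap for Vtn, Notch3, Myh11 and Des, and the library labelled KO 2 lies far from KO 1 and KO 3 for Cspg4.

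Rgs5, a GTPase-activating protein for heterotrimeric G proteins and a leading marker of brain pericytes (chr1:169655501-169695813, GRCm38), was at 41.0, 61.4 and 56.2 CPM in WT 1, WT 2 and WT 3. In KO 1, the library labelled KO 2 and KO 3 it was at 52.4, 44.8 and 41.7 CPM. The groups overlapped, since KO 1 lay above WT 1. The means were 52.9 ± 10.6 CPM in WT and 46.3 ± 5.51 CPM in KO (SD, n = 3), and the log2 fold change was -0.21 ± 0.20 (SE, adjusted p = 0.443), with a 95% interval from -0.70 to 0.28. With the 4 libraries it was -0.13 ± 0.26 (adjusted p = 0.705), and with the 5 it was -0.16 ± 0.21 (adjusted p = 0.534). A difference in Rgs5 was not detected, and the interval over 6 libraries holds changes in either direction.

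Abcc9, the sulfonylurea receptor subunit of the ATP-sensitive potassium channel of mural cells (chr6:142587862-142702315), was at 9.33, 10.4 and 16.3 CPM in WT 1, WT 2 and WT 3 and at 15.7, 14 and 8.54 CPM in KO 1, the library labelled KO 2 and KO 3. The groups overlapped almost entirely, with the lowest and next to highest values both in KO. Its log2 fold change was 0.069 ± 0.33 (adjusted p = 0.881, interval -0.74 to 0.88) over the 6 libraries, 0.018 ± 0.37 (adjusted p = 0.970) over the 5 and 0.29 ± 0.37 (adjusted p = 0.562) over the 4. Kcnj8, the pore subunit of the same channel, had a log2 fold change of 0.13 ± 0.28 (adjusted p = 0.722) over the 6. The exons of Abcc9 overlap those of 5330439B14Rik on the other strand, and since the counting was not stated to use strand, reads of the pair cannot be told apart.

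Vtn encodes vitronectin, an adhesive glycoprotein of blood and extracellular matrix that brain pericytes express (chr11:78499091-78502324). It was at 43.8, 41.7 and 52.6 CPM in WT 1, WT 2 and WT 3, and at 75.8, 69.6 and 78.9 CPM in KO 1, the library labelled KO 2 and KO 3. Every KO library lay above every WT library, that labelled KO 2 included, and the KO mean of 74.8 ± 4.74 CPM was 1.62 times the WT mean of 46.0 ± 5.77 CPM (SD, n = 3). Its log2 fold change of 0.68 ± 0.14 (interval 0.34 to 1.02) did not pass over the 6 libraries (unadjusted p = 0.00262, adjusted p = 0.184). Vtn rose by 0.84 ± 0.16 over the 4 libraries (adjusted p = 0.0368) and by 0.75 ± 0.14 over the 5 (adjusted p = 0.0126). This call was lost over the 4 libraries when the counts were scaled to library size alone (0.60, adjusted p = 0.0562) or to the summed reads of 20 endothelial genes (0.69, adjusted p = 0.138), and when KO 1 (0.89 ± 0.35, adjusted p = 0.142) or KO 3 (0.83 ± 0.35, adjusted p = 0.211) was left out.

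The sequence just upstream of Vtn, the member with the smallest unadjusted p over the 6 libraries, is shown with those of Notch3 and Des, whose levels went the other way. These are RefSeq promoter windows (GRCm38.p6), available for 8 of the 10 genes and trimmed before annotated exons, 5′ to 3′ on the strand of the gene, with the core TGGGAA bound by RBPJ, the DNA-binding partner of the Notch receptors, in capitals. Vtn lies at chr11:78498870-78499090 on the plus strand, Notch3 at chr17:32166891-32167140 on the minus strand and Des at chr1:75360042-75360291 on the plus strand.
Vtn: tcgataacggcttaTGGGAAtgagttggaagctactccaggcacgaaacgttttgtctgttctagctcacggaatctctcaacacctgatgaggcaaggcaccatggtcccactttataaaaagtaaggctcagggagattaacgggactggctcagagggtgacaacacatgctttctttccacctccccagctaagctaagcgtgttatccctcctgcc
Notch3: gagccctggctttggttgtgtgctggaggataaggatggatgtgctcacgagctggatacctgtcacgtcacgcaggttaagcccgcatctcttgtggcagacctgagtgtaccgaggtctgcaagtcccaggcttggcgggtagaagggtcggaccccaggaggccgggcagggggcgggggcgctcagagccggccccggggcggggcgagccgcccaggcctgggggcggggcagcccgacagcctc
Des: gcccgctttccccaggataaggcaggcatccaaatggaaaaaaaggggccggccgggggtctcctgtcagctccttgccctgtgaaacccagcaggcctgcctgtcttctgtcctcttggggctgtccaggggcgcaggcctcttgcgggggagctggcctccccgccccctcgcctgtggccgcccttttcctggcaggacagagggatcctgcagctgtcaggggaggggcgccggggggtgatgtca
The core, searched as TGGGAA or TTCCCA, was found once in the Vtn window, at position -236 from the RefSeq start, and once in that of Abcc9, at position -221, and not in those of the other 6. After trimming, only 33 bases were searched for Acta2 and 179 for Cspg4, against 250 in a full window. Of 32851 untrimmed windows of 250 bases before RefSeq starts, 21.6% hold it. A match of these letters is not a binding site.

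Anpep encodes aminopeptidase N (CD13), a surface peptidase of pericytes that myeloid cells and fibroblasts also carry (chr7:79821803-79861059). It was at 10.2, 15.2 and 14.1 CPM in WT 1, WT 2 and WT 3, and at 5.36, 13.3 and 6.35 CPM in KO 1, the library labelled KO 2 and KO 3. KO 1 and KO 3 lay below all WT libraries, whereas the library labelled KO 2 was inside the range of WT. The log2 fold change was -0.68 ± 0.40 (adjusted p = 0.255) over the 6 libraries and -1.13 ± 0.33 (adjusted p = 0.0657) over the 4. Anpep passed over the 4 with DESeq2 (adjusted p = 0.0250), the exact test (adjusted p = 0.0180) and at library size alone (adjusted p = 0.0435). It did not pass there with limma-voom (adjusted p = 0.0687), RLE scaling (adjusted p = 0.0675) or upper quartile scaling (adjusted p = 0.0640). Without the library labelled KO 2, Anpep fell by 1.16 ± 0.26 on the log2 scale (adjusted p = 0.0169). The summed reads of 12 markers of microglia and macrophages were also lower in KO 1 and KO 3. They came to 1125 to 1181 CPM in WT, 765 in KO 1, 676 in KO 3 and 1545 in the library labelled KO 2. That library thus lay above WT in the sum but inside the WT range for Anpep. Over the 6 libraries 8 of the 12 markers had a fold change below 0 and 4 above, and their part in the Anpep values was not tested.

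Notch3, the Notch receptor of mural cells (chr17:32120820-32166852), was at 39.9, 55.4 and 65.6 CPM in WT 1, WT 2 and WT 3, and at 31.0, 33.9 and 18.6 CPM in KO 1, the library labelled KO 2 and KO 3. Every KO library lay below every WT library, again with that labelled KO 2 on the KO side. The WT mean of 53.6 ± 12.9 CPM was 1.92 times the KO mean of 27.9 ± 8.12 CPM (SD, n = 3). The log2 fold change of -0.96 ± 0.30 over the 6 libraries (interval -1.69 to -0.24) had an unadjusted p of 0.0168 and an adjusted p of 0.184, and that of -0.95 ± 0.32 over the 4 had an adjusted p of 0.0839. Over the 5 libraries Notch3 fell by 1.11 ± 0.30 (adjusted p = 0.0282). It also passed over the 4 libraries with the exact test (adjusted p = 0.0374) and there when scaled to endothelial reads (adjusted p = 0.0108). Notch3 did not pass there with DESeq2 (adjusted p = 0.0565), limma-voom (adjusted p = 0.0752) or at library size alone (adjusted p = 0.0592). With 1 of the 4 left out, its log2 fold change ranged from -1.35 (without KO 1) to -0.61 (without KO 3). The exons of Notch3 overlap those of Gm17276 on the other strand.

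Cspg4 encodes the NG2 proteoglycan, which pericytes share with oligodendrocyte progenitors and many glioma cells (chr9:56865033-56899870), and it had the largest spread of the 10. It was at 194, 241 and 212 CPM in WT 1, WT 2 and WT 3, and at 46.1, 303 and 28.5 CPM in KO 1, the library labelled KO 2 and KO 3. KO 1 and KO 3 lay far below all WT libraries and the library labelled KO 2 above them all, and a log2 fold change of -0.80 ± 0.87 resulted over the 6 (adjusted p = 0.50, interval -2.92 to 1.31). Cspg4 fell by 2.56 ± 0.32 on the log2 scale over the 4 libraries (adjusted p = 0.0343) and by 2.53 ± 0.26 over the 5 (adjusted p = 0.00798). With KO 3 left out of the 4, the value was -2.24 (adjusted p = 0.0798).

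The summed reads of 13 genes of oligodendrocyte progenitors and proneural glioma (Pdgfra, Olig1, Olig2, Sox10 and others) had the same layout across libraries as Cspg4, though not each gene did. They summed to 3822, 4690 and 4805 CPM in WT, 1801 in KO 1, 4934 in the library labelled KO 2 and 1408 in KO 3. Of the 13, 9 were called lower and 0 higher over the 4 libraries, against 13.9% and 2.87% of all genes. Cspg4 as a percent of that sum was 5.09, 5.14 and 4.41 in WT and 2.56, 6.14 and 2.03 in KO 1, the library labelled KO 2 and KO 3, so KO 1 and KO 3 were also lowest relative to these genes. How many of the Cspg4 reads came from mural cells was not tested.

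**Figure D2:**
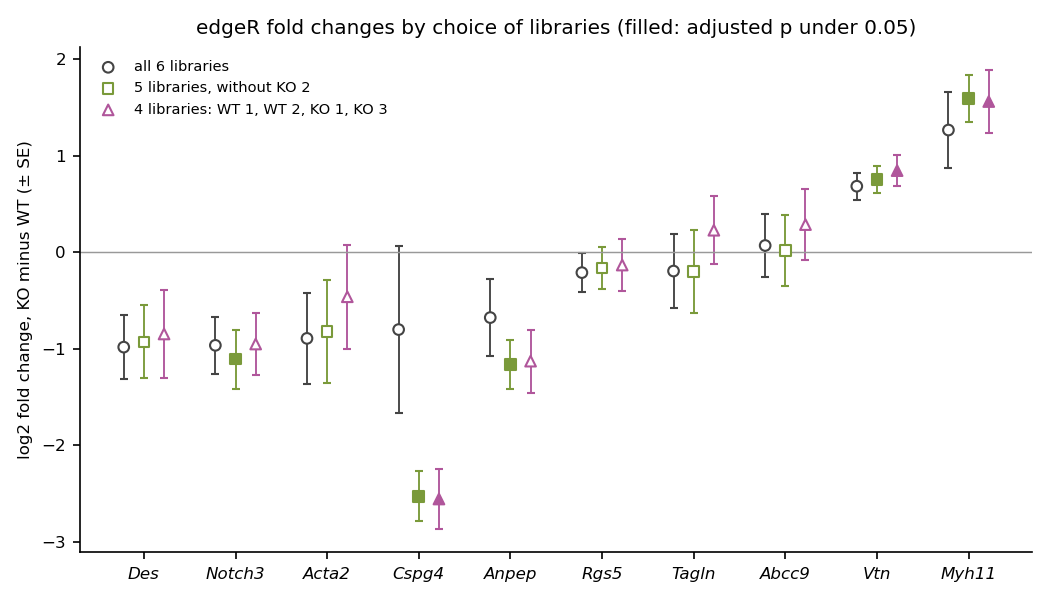
Log2 fold change (KO minus WT, ± SE) of each mural gene by the edgeR quasi-likelihood test over 6 libraries (circles), over 5 without the library labelled KO 2 (squares) and over 4 (triangles), ordered by the value over 6. Filled symbols passed an adjusted p of 0.05: 0 of 10 over 6 libraries, 5 over 5 and 3 over 4. Cspg4 moves most, from -0.80 over 6 libraries to -2.56 over 4.

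Acta2, smooth muscle α-actin (chr19:34241090-34255590), was at 7.28, 16.5 and 22.5 CPM in WT 1, WT 2 and WT 3, and at 11.5, 7.92 and 5.88 CPM in KO 1, the library labelled KO 2 and KO 3. WT 1 lay among the KO libraries, and the WT group had the wider spread (15.4 ± 7.69 against 8.44 ± 2.86 CPM, SD, n = 3). The log2 fold change was -0.89 ± 0.47 (adjusted p = 0.223, interval -2.04 to 0.26) over the 6 libraries, -0.82 ± 0.53 (adjusted p = 0.231) over the 5 and -0.46 ± 0.54 (adjusted p = 0.518) over the 4, which leave out WT 3, the library with most Acta2.

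Tagln encodes transgelin (SM22α), an actin-binding protein of smooth muscle (chr9:45929619-45936058). It was at 6.19, 9.20 and 16 CPM in WT 1, WT 2 and WT 3, and at 10.6, 9.66 and 7.60 CPM in KO 1, the library labelled KO 2 and KO 3. All KO values lay inside the WT range, and the log2 fold change was -0.20 ± 0.38 (adjusted p = 0.708) over the 6 libraries, -0.20 ± 0.43 (adjusted p = 0.706) over the 5 and 0.23 ± 0.35 (adjusted p = 0.628) over the 4. As with Acta2, WT 1 was lowest and WT 3 highest of all WT libraries. The exons of Tagln overlap those of Pcsk7 and Gm48529 on the other strand.

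Myh11, the smooth muscle myosin heavy chain and the most restricted of the contractile markers (chr16:14194535-14291372), was at 3.95, 4.08 and 3.90 CPM in WT 1, WT 2 and WT 3. In KO 1, the library labelled KO 2 and KO 3 it was at 14.1, 5.16 and 9.74 CPM, from 248, 116 and 187 reads. Every KO library lay above every WT library, though the library labelled KO 2 only just, and the WT libraries were nearly equal. At this depth the library labelled KO 2 was not separable from WT 1 or WT 2. Its exact 95% counting interval was 4.27 to 6.19 CPM, against 3.15 to 4.90 and 3.23 to 5.09 CPM. The KO mean of 9.68 ± 4.49 CPM was 2.43 times the WT mean of 3.98 ± 0.0955 CPM (SD, n = 3). The log2 fold change of 1.26 ± 0.39 over the 6 libraries (interval 0.32 to 2.21) had an unadjusted p of 0.0170 and an adjusted p of 0.184. Myh11 rose by 1.56 ± 0.33 over the 4 libraries (adjusted p = 0.0422) and by 1.59 ± 0.24 over the 5 (adjusted p = 0.00882). The call over the 4 was lost at library size alone (1.32, adjusted p = 0.0507) and without KO 1 (1.28, adjusted p = 0.171) or KO 3 (1.82, adjusted p = 0.133).

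Des encodes desmin, the intermediate filament protein of muscle and of some pericytes (chr1:75360329-75368579), and had the fewest reads of the 10. It was at 2.52, 3.77 and 3.80 CPM in WT 1, WT 2 and WT 3 (53, 73 and 77 reads), and at 2.22, 1.65 and 1.30 CPM in KO 1, the library labelled KO 2 and KO 3 (39, 37 and 25 reads). Every KO library lay below every WT library, but WT 1 and KO 1 were not separable at this depth, with exact 95% counting intervals of 1.89 to 3.30 and 1.58 to 3.04 CPM. The log2 fold change was -0.98 ± 0.33 over the 6 libraries (unadjusted p = 0.0251, adjusted p = 0.184), -0.85 ± 0.46 over the 4 (adjusted p = 0.198) and -0.93 ± 0.38 over the 5 (adjusted p = 0.0820). Ttn and Acta1, which encode titin and skeletal α-actin, went in opposite directions: Ttn fell by 2.49 ± 0.45 over the 4 libraries (adjusted p = 0.0356), and the fold change of Acta1 was 1.87 ± 0.62 (adjusted p = 0.0810). The exons of Des overlap those of Gm15179 on the other strand.

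Since total mural RNA and its make-up can vary separately, pairs of mural genes were also set against each other within each library, where library scaling cancels. Reads on Myh11 per read on Acta2 were 0.542, 0.248 and 0.173 in WT 1, WT 2 and WT 3, and 1.23, 0.652 and 1.65 in KO 1, the library labelled KO 2 and KO 3. The ratio was higher in every KO library than in any WT library. It compares reads and not levels, since the genes differ in length: by FPKM, Acta2 was above Myh11 in every library, KO 1 (4.08 against 1.95) and KO 3 (1.98 against 1.28) included. Acta2 per Tagln was 1.18, 1.79 and 1.41 in WT against 1.09, 0.820 and 0.774 in KO, also without overlap.

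Among the pericyte genes, Vtn per Rgs5 was 1.07, 0.679 and 0.935 in WT and 1.45, 1.55 and 1.89 in KO 1, the library labelled KO 2 and KO 3. Notch3 per Rgs5 was 0.973, 0.902 and 1.17 in WT and 0.592, 0.757 and 0.447 in KO. Neither ratio overlapped between groups, and the library labelled KO 2 fell with the other KO libraries in both. Rgs5 per Pecam1, an endothelial adhesion molecule, was 1.89, 2.10 and 1.98 in WT and 1.92, 1.89 and 2.50 in KO, which overlap. Acta2 per Rgs5 was 0.177, 0.269 and 0.401 in WT and 0.220, 0.177 and 0.141 in KO, which overlap as well. Myh11, Vtn and Notch3 were already without overlap on their own. These ratios were chosen after the values of the genes had been seen, and no test was made on them. The share of all pairs of genes whose ratio does not overlap was not computed.

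**Figure D3:**
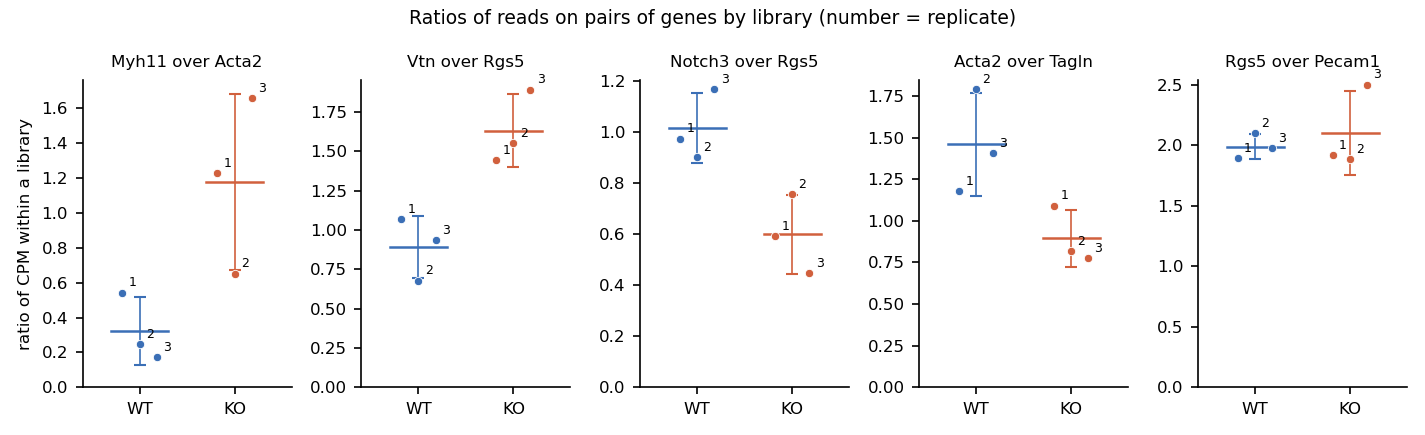
Ratio of reads between pairs of genes within each library (linear axes), blue for WT and red for KO hosts, with the replicate number beside each point, the group mean as a long line and ± SD as bars (n = 3). Points of WT and KO do not overlap in the first 4 panels, and Rgs5 over Pecam1 overlaps, between 1.89 and 2.50 in all libraries. Acta2 over Rgs5, which also overlaps, is not drawn.

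The 20 endothelial genes mark the cells on which mural cells sit, but their reads in whole-tissue RNA do not measure the number or width of vessels. The study itself reported fewer endothelial cells by staining, narrower vessels and lower endothelial transcripts by qRT-PCR in tumors of KO hosts. How the sums given here relate to those measures was not tested. The 20 genes summed to 459, 502 and 500 CPM in WT. In KO 1, the library labelled KO 2 and KO 3 the sums were 618, 485 and 475 CPM. Over the 4 libraries 0 of the 20 were called, where 13.9% of all genes were called lower and 2.87% higher. Over the 6 libraries 0 of the 20 were called, as for all genes. Before adjustment, 1 of the 20 fell in KO and 3 rose with edgeR p below 0.05 over the 6. Of all genes, 11.9% fell and 15.2% rose by that measure. The median log2 fold change of the 20 over the 6 libraries was 0.0080. Podxl (podocalyxin) had the lowest value, -0.51 ± 0.16, and the transcription factor gene Sox17 the highest, 0.77 ± 0.30 (both adjusted p = 0.184). As a percent of endothelial reads, Rgs5 was 8.94, 12.2 and 11.3 in WT and 8.49, 9.24 and 8.78 in KO, with WT 1 among the KO values. Notch3 was 8.70, 11.0 and 13.1 percent of endothelial reads in WT and 5.02, 6.99 and 3.93 in KO, without overlap.

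Among 23 other genes of pericytes tested, 15 had a log2 fold change above 0 over the 6 libraries and 8 below, with a median of 0.33 and 0 called. In 7 of them (Pdgfrb, Heyl, Enpep, Aspn, Gja4, Atp13a5 and Slc6a20a) every KO library lay above every WT library, against 13.2% of all genes, and in 1 (Tbx18) every KO library lay below, against 14.6%. A single one was called over the 4 libraries, against 13.9% of all genes called lower and 2.87% higher. This was Pdgfrb, the PDGF-B receptor of mural cells: it was at 19.9, 16.8 and 20.3 CPM in WT and 37.9, 22 and 31.9 CPM in KO, and rose by 0.92 ± 0.21 (adjusted p = 0.0473). The lowest value of the list over the 6 libraries was that of Tbx18, a mural transcription factor gene (-1.59 ± 0.37, adjusted p = 0.184).

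Among 17 other contractile genes tested, 11 had a log2 fold change above 0 over the 6 libraries and 6 below, with a median of 0.31 and 0 called. Every KO library lay above every WT library for 7 of them (Pln, Ppp1r14a, Mylk, Tpm2, Lmod1, Srf and Tpm1) and below for 0, against the same 13.2% and 14.6% of all genes. Over the 4 libraries Mylk, the myosin light chain kinase, rose by 1.21 ± 0.24 (adjusted p = 0.0406). Cald1 and Smtn, which encode the actin-binding proteins caldesmon and smoothelin, fell by 1.57 ± 0.24 (adjusted p = 0.0343) and 2.01 ± 0.41 (adjusted p = 0.0412). Of all genes, 13.9% were called lower and 2.87% higher over the 4. Over the 6 libraries Smtn was lowest (-1.24 ± 0.59, adjusted p = 0.198) and Pln, which encodes the calcium pump inhibitor phospholamban, highest (1.66 ± 0.42, adjusted p = 0.184). By the sign of the fold change over the 6 libraries, Mylk and Pln lay on the side of Myh11, and Cald1 and Smtn on that of Acta2. With Cnn1 included, the list summed to 570 to 861 CPM per library, against 19.9 to 46.3 CPM for Acta2, Tagln, Myh11 and Des. How many of the reads of the list came from mural cells was not tested.

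**Figure D4:**
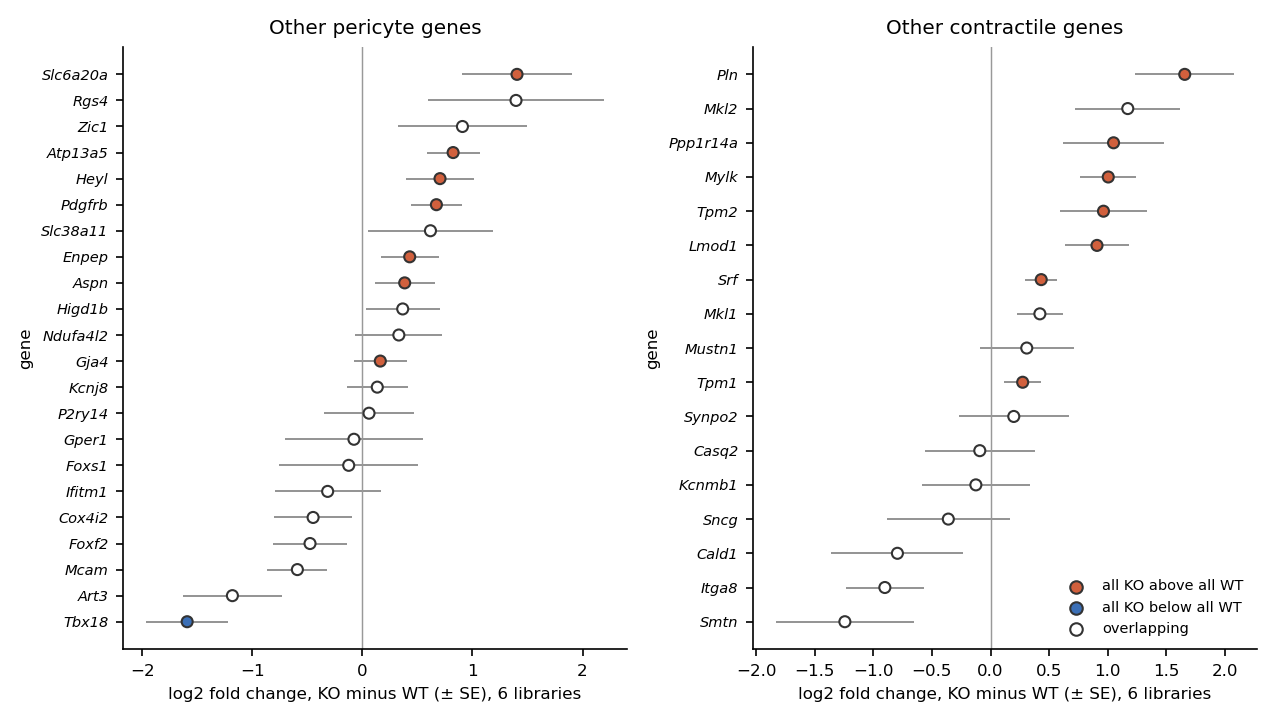
Log2 fold change over 6 libraries (KO minus WT, ± SE, edgeR) of 22 of the 23 other pericyte genes and of 17 other contractile genes, ordered by value. Red marks genes with all KO libraries above all WT libraries (7 in each panel), blue the reverse (Tbx18) and white an overlap. Mkl1 and Mkl2 are the symbols used in the table for Mrtfa and Mrtfb.

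Signals that draw mural cells to vessels were read from 14 genes, of which 0 were called over the 6 libraries. Over the 4, Angpt2 and Jag1 were called lower and Pdgfrb higher, against 13.9% of all genes lower and 2.87% higher. Pdgfb, the ligand of PDGFRβ, was at 22.8, 24.8 and 25.4 CPM in WT and 33.4, 26.4 and 36.5 CPM in KO 1, the library labelled KO 2 and KO 3, and its log2 fold change was 0.38 ± 0.17 (adjusted p = 0.191), so that ligand and receptor both had higher values in every KO library. Jag1, a ligand of NOTCH3, was at 29.9, 46.4 and 28.8 CPM in WT and 15.9, 22.2 and 9.16 CPM in KO, below WT throughout like Notch3, and fell by 1.62 ± 0.37 over the 4 libraries (adjusted p = 0.0477). Every KO library lay below every WT library for 2 of the 14 genes and above for 4, against 14.6% and 13.2% of all genes.

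In the angiopoietin pathway, Angpt2, the ligand that endothelial cells of sprouting vessels release, was at 9.09, 11.5 and 19.4 CPM in WT and 3.19, 12.7 and 1.41 CPM in KO 1, the library labelled KO 2 and KO 3. It fell by 2.18 ± 0.48 over the 4 libraries (adjusted p = 0.0453), and was the lowest of the 14 over the 6 (-1.23 ± 0.80, adjusted p = 0.291). Angpt1, the ligand made by mural cells, had a log2 fold change of 0.27 ± 0.45 (adjusted p = 0.654), and that of Tek, their common receptor on endothelium, was 0.54 ± 0.21 (adjusted p = 0.184). S1pr1, a sphingosine 1-phosphate receptor of endothelial junctions, had the highest value of the list, 0.99 ± 0.26 (adjusted p = 0.184).

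The make-up of the tissue also differed between libraries, and these values stand beside all mural results. The 12 neuron genes summed to 5561, 1818 and 3321 CPM in WT and 12546, 4730 and 15222 CPM in KO 1, the library labelled KO 2 and KO 3, from Gad2 (log2 fold change 0.79 ± 0.50) to Slc17a7 (1.98 ± 0.69), with 0 called. The 6 astrocyte genes summed to 2045 to 3108 CPM in WT and 3751 to 6385 CPM in KO, from Slc1a3 (-0.025 ± 0.20) to Slc1a2 (1.83 ± 0.49), with 1 called higher over the 4 libraries, where 2.87% of all genes were. The 7 proliferation genes summed to 1064 to 1894 CPM in WT, 97.9 in KO 1, 1183 in the library labelled KO 2 and 15.8 in KO 3, from Bub1 (-2.06 ± 1.5) to Kif11 (-1.62 ± 1.2), with 6 called lower over the 4, where 13.9% of all genes were. KO 1 and KO 3, the libraries with most neuron reads and fewest proliferation reads, were also those with most Myh11 and least Cspg4 and Anpep.

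Of the other lists, the 13 progenitor genes ran over the 6 libraries from Dll3 (-2.20 ± 1.08) to Neu4 (0.54 ± 0.71), and the 12 microglia and macrophage genes from Cd68 (-1.17 ± 0.46) to P2ry12 (0.94 ± 0.34), with 6 called lower over the 4 against the same 13.9%. The 12 fibroblast genes, whose cells share Anpep with pericytes, summed to 110 to 147 CPM in WT and 129 to 176 CPM in KO, from Col3a1 (-1.40 ± 0.70) to Cemip (1.43 ± 0.47), with 1 called lower over the 4 against the same 13.9%. The 5 skeletal muscle genes tested summed to 22 to 29.8 CPM in WT and 12.3 to 16.6 CPM in KO, with 2 called lower over the 4 against the same 13.9%. No marker of these lists was at 0 in any library, and the part of these cell types in the mural values was not tested.

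Across libraries the 10 genes did not follow a single profile. Of their 45 pairs, 32 had a Pearson correlation of log2 CPM over the 6 libraries above 0 and 13 below. The most alike were Notch3 and Des (r = 0.94), Anpep and Cspg4 (r = 0.93) and Rgs5 and Acta2 (r = 0.91), and the least alike Anpep and Myh11 (r = -0.92) and Cspg4 and Myh11 (r = -0.88). These values describe 6 libraries that also differ by host and in tissue make-up, and a difference between groups enters each of them. Within groups, WT 1 had the lowest WT value for 8 of the 10 genes, and KO 3 the lowest KO value for 7. The library labelled KO 2 lay below all WT libraries for 2 genes (Notch3 and Des), above them all for 3 (Vtn, Cspg4 and Myh11) and within the WT range for the other 5.

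**Figure D5:**
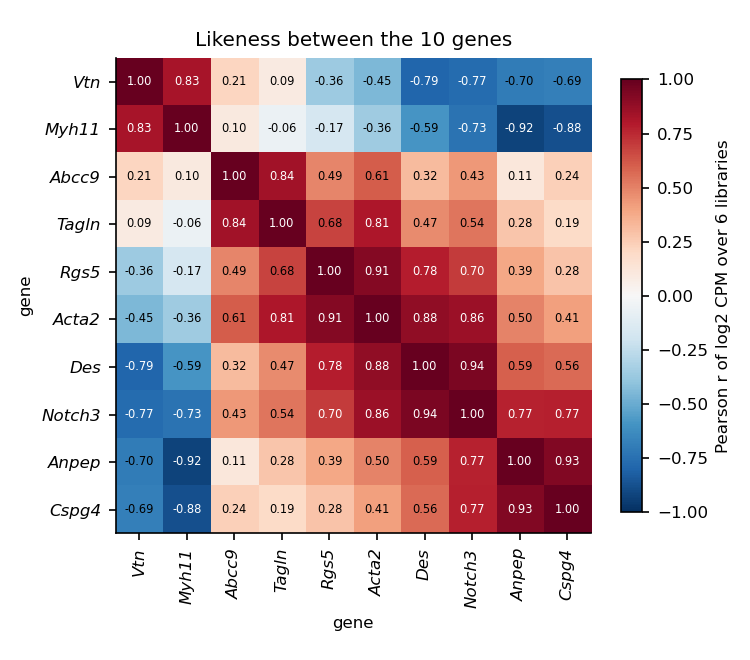
Pearson correlation of log2 CPM over 6 libraries for each pair of the 10 mural genes, from -1 (blue) to 1 (red). Vtn and Myh11 form one corner (r = 0.83) and have values below 0 with Notch3, Des, Anpep and Cspg4, while Rgs5, Acta2, Tagln and Abcc9 have values above 0 with each other.

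Among all genes tested, the 3 most like each mural gene over the 6 libraries were also listed. Those of Cspg4 were Ctss, Fyb and H2-T23 (r from 0.999), and 1641 genes passed r = 0.95 with it, as 2021 did with Anpep, whose nearest were Slc16a13, Hyls1 and Dhh. Few genes followed Tagln (2 over 0.95), Abcc9 (5) or Rgs5 (6) so closely. The nearest to Tagln were Adamts20, Myct1 and Erg, the last an endothelial transcription factor gene. Ankrd61 and Apln were among those of Abcc9, and Sertad2, Rpp21 and Dhcr7 were those of Rgs5. Notch3 was most like Fam102b, Nox4 and Ccdc66, Des like Tatdn1, Prkd1 and Cwf19l1, and Acta2 like Cox18, Ralgapa2 and Nsmce2. Vtn was most like Gm5577, 1110065P20Rik and H2afj, and Myh11 like 4930528A17Rik, Ier5l and Mzf1. These values describe the 6 libraries only, and a high r was selected for, since each gene listed was picked among the 16166 tested.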

How the data were processed

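RNA-seq libraries of 6 tumors (3 WT, 3 KO) were grouped by their labels. The deposited values are raw counts of reads per gene, made by the authors with alignment and gene counting, and FPKM, which the authors computed from these counts per gene length. The submitters' processing notes name mm10, CASAVA 1.8.2 and edgeR, whereas the methods name hg38. The authors' own fold changes, p-values and false discovery rates in the same table, and 9 per-sample columns of normalized values and ratios, were not used.

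The fit of the counts used edgeR 4.0.16 in R 4.3.3 (filterByExpr with minimum count 10 and minimum total 15, TMM factors, quasi-likelihood F test, Benjamini-Hochberg over all genes tested). A log2 fold change is KO minus WT, and its SE is the absolute value divided by the root of F. CPM used TMM factors over the 6 libraries, correlations a prior count of 2, and counting intervals are exact Poisson at 95% and cover counting error only. Positions are from GENCODE vM21 (GRCm38), matched by symbol. The study describes the RNA-seq replicates as separate mice, 3 per group. The pipeline was also run on simulated counts with the same variability for all genes. These lacked the differences in tissue make-up seen here, so that run cannot show how the test performs on these libraries.

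All 10 genes are named. From each of the other 11 lists, written by hand, the counts of calls and the genes with the lowest and highest fold change over the 6 libraries are given, as are Pdgfb, Pdgfrb, Angpt1, Angpt2 and Tek, except for a few items that are not reported here. Kcnj8, Jag1 and the other genes called or without overlap between groups were named after their values were seen. The genes and lists were chosen with earlier results of these data known, as was the set of 4 libraries. Of the contractile list, Cnn1 was not tested for low counts, and Actg2 and Myocd were not found under these symbols. Alternatives were RLE, upper quartile and library size scaling, no filter and a mean of at least 10 counts, DESeq2 1.42.0, edgeR's exact test, limma-voom (limma 3.58.1), the replicate number as a block and each library left out. Scaling to summed endothelial counts was added after the data were seen. Python 3.11.15 with matplotlib 3.10.9, scipy 1.17.1, numpy 2.4.6 and pandas 2.3.3 made the tables and figures.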

Additional observations from a re-analysis of the deposited data

How the results depend on the processing

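Over the 6 libraries, the count of 0 mural genes past the test became 2 with DESeq2 (Vtn and Myh11, with Cspg4 given no adjusted p) and ranged from 0 to 5 with 1 library left out, 5 being the value without the library labelled KO 2. Over the 4 libraries, the count of 3 became 5 with the exact test and ranged from 0 to 5 with 1 library left out (5 without WT 1, 1 without KO 1 and 0 without KO 3). In such fits with a lone library in a group, that library is assumed to vary like the others. The median fold change of the 10 genes ranged from -0.66 to -0.24 over the 6 libraries and from -0.67 to 0.22 over the 4, where it turned positive without WT 2.

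Signs turned for genes whose main fold change was smaller than its SE, Acta2 over the 4 libraries (-0.46 ± 0.54) included. Abcc9 over the 6 libraries was -0.074 at library size alone, -0.026 scaled to endothelial counts and from -0.11 to 0.37 with 1 library left out (below 0 without WT 1, WT 2 or KO 1), and over the 4 it ranged from -0.21 (without KO 1) to 0.67. Tagln over the 6 ranged from -0.47 to 0.27 (without WT 3). Over the 4 Tagln was -0.023 at library size alone and from -0.034 to 0.55 with 1 library left out (below 0 without WT 1 or KO 1), Rgs5 ranged from -0.40 to 0.19 (above 0 without WT 2 or KO 3), and Acta2 from -1.01 to 0.25 (above 0 without WT 2). The cause was not tested. Library size alone moved the median of all genes by -0.15 over the 6 libraries and -0.25 over the 4, and endothelial scaling by -0.074 and -0.15. Over the 4 libraries endothelial scaling called Anpep, Notch3, Cspg4 and Myh11, and DESeq2 called Vtn, Anpep, Cspg4 and Myh11.

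Counts of all genes called depended on the tool: over the 6 libraries 0 by the main test and by limma-voom, 121 by the exact test, 1206 by DESeq2 and 8594 without the library labelled KO 2; over the 4 libraries 2708, with 82.9% lower, against 5839 (54.1% lower) by DESeq2, 6212 (57.8%) by the exact test, 5018 (67.7%) with endothelial scaling, 4001 (90.1%) at library size alone and 252 to 8748 with 1 library left out. Same-numbered libraries did not deviate together in every pair (r = 0.54, 0.59 and -0.20), and WT 1 with KO 3 had r = 0.53. Deviations from means of 3 libraries cannot settle whether the numbers pair the samples, and the main fit took them as unpaired. With the replicate number as a block over the 6 libraries, 0 mural genes and 0 of all genes were called, and an unadjusted p under 0.05 was reached by 3328 genes on the lower side and 3502 on the higher, against 1923 and 2462 without it. Des, with 25 to 77 reads per library, is the gene most limited by depth.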
